A study of Caenorhabditis elegans with 2 samples.

Results

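The cytosolic ribosome of Caenorhabditis elegans has a small, 40S subunit whose proteins are encoded by genes named rps- plus a number. All protein-coding genes of the Ensembl release 115 annotation (WBcel235) whose symbol starts with rps- followed by a digit were taken, which gave 31 of 19973 nuclear protein-coding genes. Their promoters were examined in a chromatin immunoprecipitation sequencing (ChIP-seq) data set for NHR-43, a nuclear hormone receptor. Whole hermaphrodite L3 larvae of strain OP477 were harvested at 36.5 h, counted from synchronisation by L1 starvation, in 2 biological replicates that form 1 group. All animals carried unc-119(tm4063) III and the integrated transgene wgIs477, which expresses NHR-43 with GFP-FLAG at its C-terminus, and chromatin was sheared by sonication and precipitated with an antibody to GFP. The labels' antibody entry gives nhr-43, which is taken here to mean the target. The labels list a control experiment, and per the authors' notes 1 control file served both replicates. Its libraries were not analysed here, so the signal of the control at these genes was not examined. A signal common to any GFP-tagged factor cannot be told apart from one of NHR-43. No expression data were used, and binding at a gene does not show that the receptor regulates it.

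The small subunit binds the messenger RNA, scans it for the start codon and holds the decoding centre, where each codon is matched to a transfer RNA. Its proteins sit in a head, which closes over the messenger RNA, and in a body with a platform. Ribosomal protein genes are among the most highly transcribed genes of growing larvae, and their products are made in matched amounts. Many nematode messenger RNAs are trans-spliced to a leader, so that the annotated 5' end often lies at the splice site, downstream of where transcription starts.

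The deposited lists give for each peak a summit, the base of highest enrichment, and a signal value of the authors, which ranks peaks within 1 list and has its own scale in each. The thresholded list held 3889 peaks, 3870 of them nuclear, and these were the 3889 peaks of highest signal in the list made from pooled reads. The relaxed lists, which hold many weak peaks, had 30000 peaks in the pooled list, 29315 in replicate 1 and 30000 in replicate 2. The sources used here give no read depth, and signal values therefore carry no interval.

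NHR-43-GFP summits lay upstream of most small subunit genes. A gene was called bound when a thresholded summit fell between 1000 bp upstream and 200 bp downstream of its annotated 5' end, which is its promoter window here. By this rule 22 of the 31 small subunit genes were bound (71.0%), against 10.1% of all protein-coding genes (2010 of 19973). An exact 95% interval of 52% to 85.8% would hold if the 31 were independent draws. They are instead every gene that the symbol rule matched, and the interval does not describe variation between the replicates. Where each summit counted only for the nearest 5' end within 2000 bp, 11 of the 31 were bound, against 10.8% of all genes. The bound genes were rps-0, rps-1, rps-3, rps-4, rps-8, rps-10, rps-11, rps-12, rps-13, rps-14, rps-15, rps-17, rps-18, rps-19, rps-20, rps-21, rps-22, rps-23, rps-24, rps-26, rps-28 and rps-30. The genes without a thresholded summit were rps-2, rps-5, rps-6, rps-7, rps-9, rps-16, rps-25, rps-27 and rps-29. The design holds 1 group and no comparison of conditions, so counts are given beside those of all genes and no test was made. In whole animals, strong binding in a few cells and weak binding in many cannot be told apart.

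The DNA under the summits is shown for 10 bound genes, chosen to include 4 of the 7 highest peaks (rps-12, rps-1, rps-23 and rps-28) and copies of the 2 words that recur among the bound promoters. Each run is 151 bases of the RefSeq WBcel235 genome, the same build as the ce11 lists, centred on the pooled summit and read 5' to 3' on the strand of the gene. Capitals in rps-0, rps-3, rps-22 and rps-30 mark AGTATTCAACG. Capitals in rps-23 mark ACGGTAACACT, and in rps-13 and rps-18 they mark the same word read on the other strand, AGTGTTACCGT. Capitals in rps-1 mark GAGAGA and its reverse complement TCTCTC, those in rps-28 mark CCGCCC, and rps-12 held none of the words searched. Not every searched word is in capitals: GAGAGA and TATAAA in rps-18, and TATAAA on the other strand in rps-0, were left in lower case.
rps-0, chrIII:4754284-4754434, minus strand: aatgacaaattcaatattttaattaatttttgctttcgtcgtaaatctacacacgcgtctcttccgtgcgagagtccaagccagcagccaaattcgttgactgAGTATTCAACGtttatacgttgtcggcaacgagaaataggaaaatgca
rps-1, chrIII:4475578-4475728, plus strand: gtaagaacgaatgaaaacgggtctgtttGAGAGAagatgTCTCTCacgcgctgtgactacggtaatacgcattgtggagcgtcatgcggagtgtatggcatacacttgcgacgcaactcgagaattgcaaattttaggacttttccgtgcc
rps-3, chrIII:6206398-6206548, plus strand: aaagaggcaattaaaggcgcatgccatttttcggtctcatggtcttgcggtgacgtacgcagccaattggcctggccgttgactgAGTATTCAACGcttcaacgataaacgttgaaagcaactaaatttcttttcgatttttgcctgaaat
rps-12, chrIII:5679065-5679215, plus strand: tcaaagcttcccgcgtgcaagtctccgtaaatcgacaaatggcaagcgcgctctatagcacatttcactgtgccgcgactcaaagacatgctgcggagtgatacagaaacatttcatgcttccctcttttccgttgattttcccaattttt
rps-13, chrIII:6375095-6375245, minus strand: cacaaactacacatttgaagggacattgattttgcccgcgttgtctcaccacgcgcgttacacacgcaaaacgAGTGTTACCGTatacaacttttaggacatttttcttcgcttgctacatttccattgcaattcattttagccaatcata
rps-18, chrIV:14824919-14825069, plus strand: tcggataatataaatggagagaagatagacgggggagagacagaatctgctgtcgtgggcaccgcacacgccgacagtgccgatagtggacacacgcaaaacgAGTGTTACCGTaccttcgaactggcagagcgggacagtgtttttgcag
rps-22, chrIII:1950333-1950483, plus strand: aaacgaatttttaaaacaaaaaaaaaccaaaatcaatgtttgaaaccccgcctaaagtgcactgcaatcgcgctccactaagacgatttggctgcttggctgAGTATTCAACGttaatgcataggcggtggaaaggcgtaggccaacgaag
rps-23, chrIV:12391272-12391422, minus strand: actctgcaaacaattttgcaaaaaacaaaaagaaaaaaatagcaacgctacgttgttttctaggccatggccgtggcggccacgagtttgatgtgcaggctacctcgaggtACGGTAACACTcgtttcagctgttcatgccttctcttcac
rps-28, chrIV:1659183-1659333, plus strand: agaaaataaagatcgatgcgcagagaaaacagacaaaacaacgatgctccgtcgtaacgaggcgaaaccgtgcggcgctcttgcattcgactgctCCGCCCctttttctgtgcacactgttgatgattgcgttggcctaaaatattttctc
rps-30, chrV:7776223-7776373, plus strand: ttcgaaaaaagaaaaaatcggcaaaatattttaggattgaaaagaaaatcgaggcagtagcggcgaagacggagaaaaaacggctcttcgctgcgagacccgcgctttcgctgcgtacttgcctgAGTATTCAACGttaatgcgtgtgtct

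Each of these summits lay between genes except that of rps-18, which was in an exon of sec-61.A, which encodes a subunit of the protein-conducting channel of the endoplasmic reticulum. Over all bound small subunit genes 21 summits lay between genes, 1 lay in an exon and 0 lay in an intron.

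The count held in each replicate. When the 3889 highest peaks of each replicate stood in for the thresholded list, 23 small subunit genes had a summit in replicate 1 (74.2%, against 9.81% of all genes). In replicate 2 it was 20 (64.5%, against 9.52%). Replicate 2 alone lacked rps-3 and rps-17, and replicate 1 alone lacked rps-8 but held rps-7 and rps-27. Among all relaxed peaks, 29 small subunit genes had a summit in replicate 1 (93.5%, against 36.0% of all genes). Relaxed summits of replicate 2 were found at 28 (90.3%, against 35.2%), and those of the pooled list also at 28 (90.3%, against 34.8%). A summit of both replicates lay within 100 bp of the highest thresholded summit at 20 genes (64.5%, against 8.63% of all genes).

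**Figure D1:**
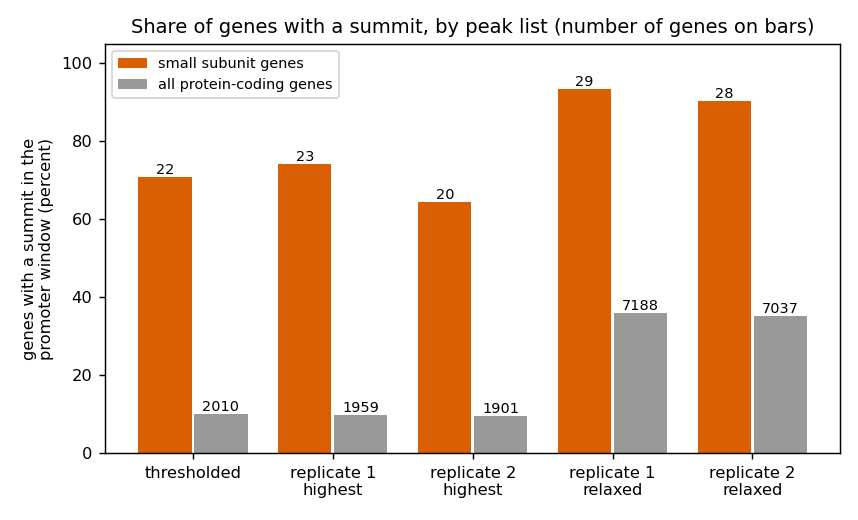
Percent of the 31 small subunit genes (orange) and of all 19973 protein-coding genes (grey) with a summit in the promoter window, by peak list, with the number of genes above each bar. "Highest" means the 3889 highest peaks of 1 replicate, and the orange bar is the taller in all 5 lists.

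The highest peak of the set lay at rps-12, which encodes eS12, a protein of the head. Its signal was 744.49 in the pooled list (rank 47 of the nuclear peaks), 205.17 in replicate 1 (rank 120) and 482.12 in replicate 2 (rank 42). The summit lay 158 bp upstream of the 5' end, in a peak at chrIII:5679001-5679262. The next genes also encode head proteins. rps-20, for uS10, had 702.04 pooled (rank 55), 291.92 in replicate 1 (rank 48) and 347.88 in replicate 2 (rank 78). rps-19, for eS19, whose human counterpart is mutated in Diamond-Blackfan anaemia, had 646.19 pooled (rank 71), 260.94 in replicate 1 (rank 57) and 323.53 in replicate 2 (rank 91). The order of these genes was not the same in both replicates, since rps-20 was first in replicate 1 and rps-12 in replicate 2.

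rps-1 encodes eS1, a platform protein beside the channel where the messenger RNA leaves. It had 615.17 pooled (rank 77), 156.28 in replicate 1 (rank 203) and 436.44 in replicate 2 (rank 50), from a peak at chrIII:4475528-4475797 with the summit 265 bp upstream. rps-26, whose product eS26 lies at the same exit, had 456.94 pooled (rank 159), 154.50 in replicate 1 (rank 211) and 275.39 in replicate 2 (rank 136). Both genes ranked higher in replicate 2 than in replicate 1. rps-28, for eS28 of the head, went the other way, with 440.54 pooled (rank 176), 196.55 in replicate 1 (rank 133) and 234.48 in replicate 2 (rank 199).

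Proteins at the decoding centre were represented by rps-23, which encodes uS12, a protein that takes part in the accuracy of decoding. It had 487.76 pooled (rank 127), 187.93 in replicate 1 (rank 147) and 264.49 in replicate 2 (rank 155), in a peak at chrIV:12391230-12391464. rps-15, for uS19 of the head, had 299.93 pooled (rank 374), 103.97 in replicate 1 (rank 386) and 159.39 in replicate 2 (rank 434). Their ranks differed little between the replicates. rps-10, for eS10 of the head, had 311.51 pooled (rank 346), 109.96 in replicate 1 (rank 359) and 183.18 in replicate 2 (rank 335). rps-0, for uS2 of the body, had 224.35 pooled (rank 655), 100.94 in replicate 1 (rank 412) and 89.49 in replicate 2 (rank 1172). Of these 10 genes rps-0 alone had a larger signal in replicate 1 than in replicate 2, although each replicate's signal has its own scale.

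The other 12 bound genes had pooled signals between 74.25 and 223.13. The highest of them was rps-24, which encodes eS24 of the body and was the one gene with more than 1 thresholded summit, at 482 bp upstream with a signal of 223.13 and at 277 bp upstream with 145.32. Next came rps-22 (uS8) at 209.47, rps-13 (uS15) at 196.65 and rps-4 (eS4) at 179.83, which all encode body or platform proteins. rps-14 had 153.02 and rps-11 had 150.84. They encode uS11 of the platform and uS17 of the body. rps-30 had 109.95, and it encodes a small subunit protein made as a fusion to a ubiquitin-like protein. The lowest were rps-21 at 107.17, rps-3 at 99.88, rps-18 at 95.38, rps-8 at 79.05 and rps-17 at 74.25, near the 61.42 at which the thresholded list ends. Of these, rps-3 encodes uS3, which lines the channel where the messenger RNA enters, and rps-18 encodes uS13, which touches the large subunit.

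The median signal over the bound small subunit genes was 216.30, against 128.37 over all bound protein-coding genes. Their median rank was 702.5 among the nuclear pooled peaks. Of the 22, 16 were above the median of all bound genes, and 7 were above its 90th percentile of 368.76. Each bound gene with a signal over that percentile has been named above, from rps-12 to rps-28.

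**Figure D2:**
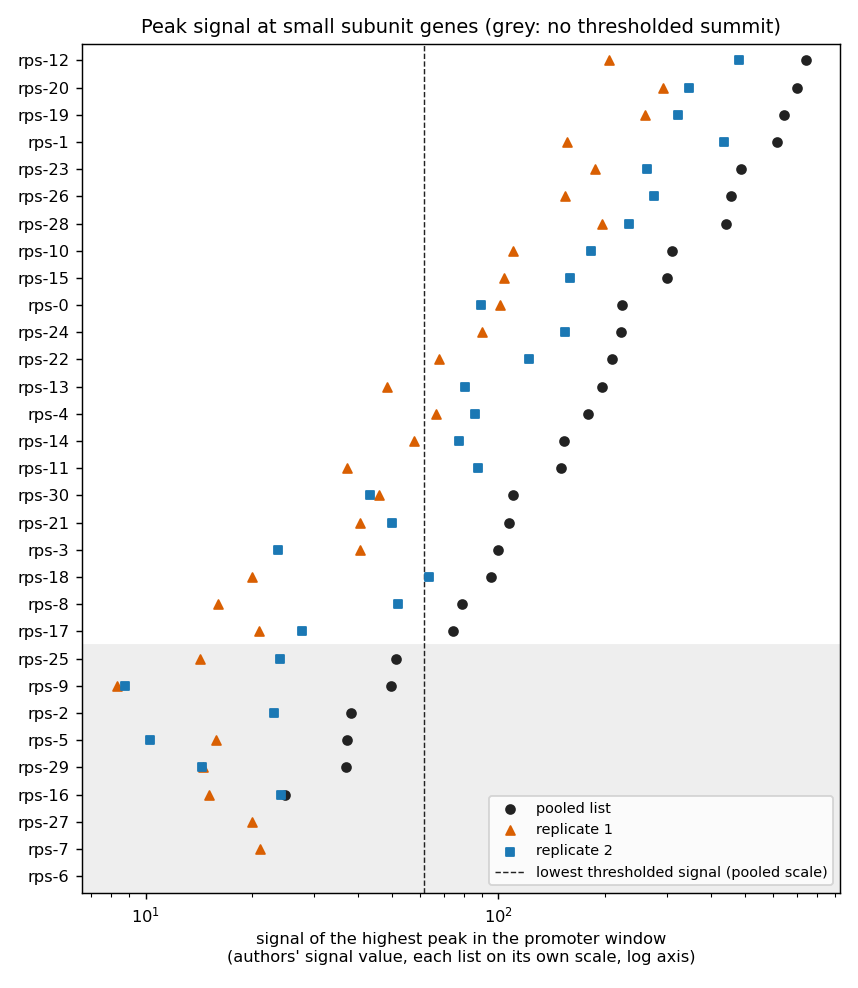
Signal (log axis) of the highest peak in the promoter window of each small subunit gene in the pooled list (circles), replicate 1 (triangles) and replicate 2 (squares), each on the scale of its list. The dashed line is the lowest thresholded signal, 61.42, and holds for the circles only. The 22 bound genes run from 74.25 to 744.49, and the 9 others, on grey, reach at most 51.37.

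Most of the 9 genes without a thresholded summit had a weak peak in the relaxed pooled list, where 34.8% of all genes had a summit. The nearest to the threshold was rps-25, for eS25 of the head, with 51.37 in the pooled list, 14.31 in replicate 1 and 24.07 in replicate 2. rps-9, for uS4 of the body, had 49.62 in the pooled list, 8.28 in replicate 1 and 8.73 in replicate 2. rps-2, for uS5 near the messenger RNA entry, had 38.34 in the pooled list and 23.12 in replicate 2, with no peak in replicate 1. All 3 pooled summits lay upstream, at 384 bp for rps-25, 241 bp for rps-9 and 259 bp for rps-2.

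rps-5, for uS7 of the head near the messenger RNA exit, had 37.27 in the pooled list, 15.85 in replicate 1 and 10.28 in replicate 2. rps-29, for uS14, a zinc-binding protein of the head, had 36.98 in the pooled list, 14.55 in replicate 1 and 14.49 in replicate 2. rps-16, for uS9 of the head, had 24.86 in the pooled list at 13 bp upstream, 15.14 in replicate 1 at 176 bp downstream and 24.21 in replicate 2 at 274 bp upstream, so its weak summits did not coincide. A thresholded peak of 329.02 lay 1752 bp upstream of rps-16, outside the window, and 70 bp upstream of fib-1, which encodes the nucleolar methyltransferase fibrillarin.

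The last 3 genes had no pooled peak in the window. rps-7, for eS7 of the body, had a summit in replicate 1 with 21.08 at 306 bp upstream, and none in replicate 2. rps-27, for eS27, a zinc-binding protein of the platform, had one in replicate 1 with 20.09 at 612 bp upstream, and none in replicate 2. rps-6, for eS6, the target of S6 kinase in mammals, had none in any of the 3 relaxed lists, and the nearest pooled summit lay 1262 bp downstream of its 5' end. In all, 6 of the 9 had a relaxed pooled summit (against 34.8% of all genes). In replicate 1 it was 7 (against 36.0%), and in replicate 2 it was 6 (against 35.2%).

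The summits stood at a narrow range of distances. The median over the 22 bound genes was 297.5 bp upstream of the 5' end, with quartiles of 252.75 and 373.75 bp and extremes of 127 bp at rps-22 and 685 bp at rps-18. Over all bound protein-coding genes the median was 248 bp upstream, with quartiles of 128 and 459 bp. The summit lay 100 to 500 bp upstream at 21 of 22 small subunit genes (95.5%), all but rps-18, and at 1163 of 2010 bound genes (57.9%). Without rps-18 the small subunit summits ran from 127 to 482 bp upstream. The band encloses that range, so its bounds shape the comparison of these shares. The summit lay downstream of the 5' end at 0 of 22 (up to 13.6% if the genes were independent draws) and at 155 of all bound genes (7.71%). The annotated 5' ends of these genes leave little untranslated sequence: the start codon was a median of 11 bp away in the genome, and within 35 bp at 28 of the 31. The median peak width was 232 bp at the small subunit genes (98 to 324 bp) and 255 bp at all bound genes.

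**Figure D3:**
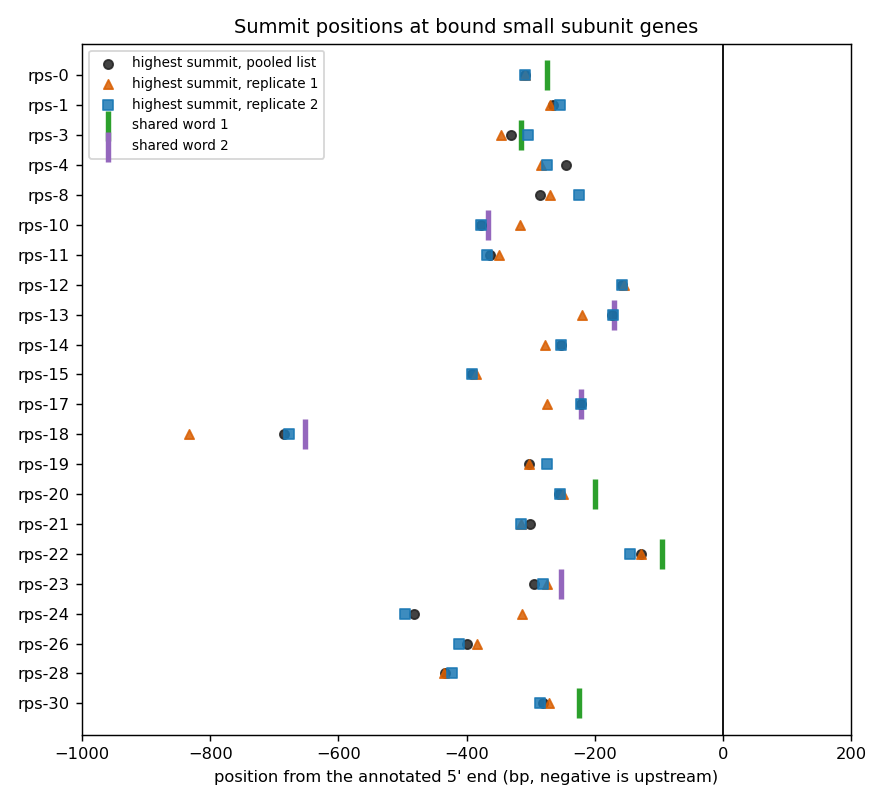
Position of the highest summit from the annotated 5' end (bp, negative is upstream) at the 22 bound small subunit genes in the pooled list (circles), replicate 1 (triangles) and replicate 2 (squares), with the copies of the 2 recurring 11-letter words as bars. All summits lie upstream, and rps-18 and rps-24 are the genes where the replicates are farthest apart.

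The summits of each replicate were compared with the pooled summits. At the 20 genes with a partner in each replicate, the distance from the pooled to a replicate's summit had a median of 10.5 bp and a maximum of 61 bp, at rps-10. A partner was sought within 100 bp only, and the pooled list was made from the reads of both replicates. Short distances therefore follow in part from the rule. The rule left out rps-24 and rps-18, which had no partner in replicate 1. The highest summit of replicate 1 lay 313 bp upstream at rps-24 and 834 bp upstream at rps-18. The summits of replicate 2 lay 496 bp upstream at rps-24 and 677 bp at rps-18. In replicate 1 the 22 genes had signals of 16.01 to 291.92 with a median of 78.74, and in replicate 2 signals of 23.80 to 482.12 with a median of 105.81. Their ranks ran between 48 and 4421 in replicate 1 (median 621) and between 42 and 6708 in replicate 2 (median 933.5). The lowest-ranked gene in replicate 1 was rps-8, which had rank 2463 in replicate 2, and in replicate 2 it was rps-3, which had rank 1459 in replicate 1. Across the 20 genes, which share their libraries and control, Spearman's rho between the replicates' signals was 0.91, against 0.704 across the 1724 bound protein-coding genes with both partners. Of the 22, 13 ranked higher in replicate 1 and 9 in replicate 2.

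**Figure D4:**
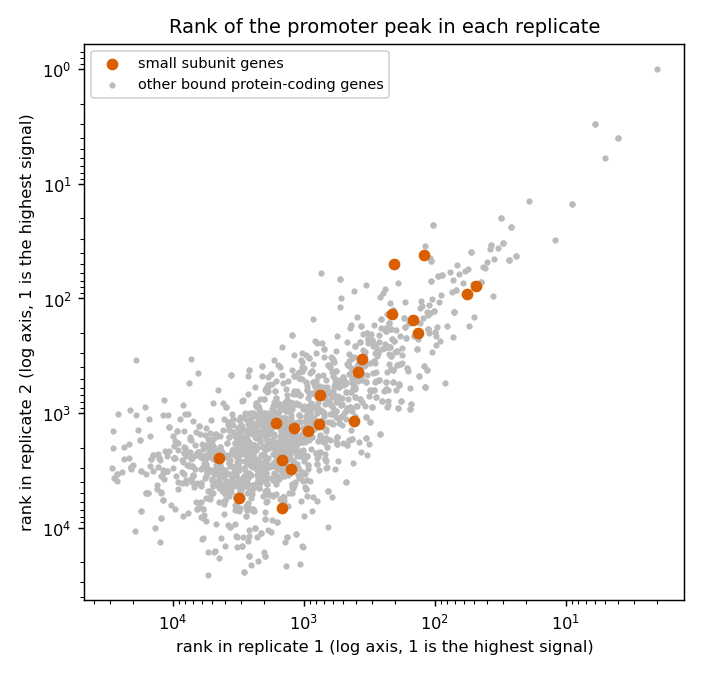
Rank of the promoter peak in replicate 1 and replicate 2 (log axes, 1 is the highest signal, at the top right) for the 20 bound small subunit genes with a summit of both replicates within 100 bp (orange) and for the other bound protein-coding genes (grey). The orange points follow the diagonal, with rps-3 the lowest in replicate 2 at rank 6708.

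Many of these summits were shared between promoter windows. The summit also fell in the promoter window of another protein-coding gene at 15 of the 22 small subunit genes (68.2%), against 894 of 2010 bound genes (44.5%). At 14 of them a neighbour was read from the opposite strand, so that the summit lay between divergent 5' ends. In 3 cases the neighbour encodes a protein of the large subunit: rpl-24.1 is 233 bp from the summit of rps-10, rpl-39 is 219 bp from that of rps-30, and rpl-36 is 411 bp from that of rps-14, which it shares with ndab-2 at 912 bp.

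The other opposite-strand neighbours were rbg-3 (65 bp from the summit of rps-0), ifet-1 (503 bp from that of rps-1), sna-3 (262 bp, rps-3), ska-3 (135 bp, rps-12), nfx-1 (209 bp, rps-13), F36A2.9 (390 bp, rps-15), hsr-9 (142 bp, rps-19), ekl-4 (142 bp, rps-20), polh-1 (139 bp, rps-22), dpm-3 (240 bp, rps-23) and tmem-107 (57 bp, rps-26). They have unlike roles: ifet-1 encodes a translational repressor, polh-1 a DNA polymerase that copies damaged DNA, dpm-3 a subunit of an enzyme of protein glycosylation and tmem-107 a protein of the ciliary transition zone. On the same strand, Y41D4B.4 was 852 bp from the summit of rps-28. The nearest 5' end to the summit was that of the small subunit gene at 11 of the 22 and that of another gene at the other 11. The same share over all bound genes is not given here, so this split is a description only. The 5' end of rps-26 was 400 bp from its summit and that of tmem-107 was 57 bp away, and rps-0 was 308 bp and rbg-3 65 bp from theirs. For rps-15 and F36A2.9 the distances were almost equal, 391 bp and 390 bp. Which of the genes a shared summit serves cannot be told apart in these lists.

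The genes were also counted by the place and origin of their proteins. Of the head proteins 9 of 13 genes were bound, with a median signal of 311.51, and of the body and platform proteins 13 of 18, with 196.65. Of the families shared with bacteria 10 of 15 were bound, with a median of 203.06, and of the others 12 of 16, with 267.32. By chromosome, 8 of 9 genes on III were bound, 7 of 10 on IV, 6 of 8 on I, 1 of 3 on V and 0 of 1 on II, and X holds 0 of these genes. With groups this small, none of these splits is offered as a difference.

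The words under the summits were counted within 75 bp to each side, on both strands, and set beside the 1622 other thresholded summits in promoter windows. GAGAGA was present at 5 of 22 small subunit summits (22.7%, against 25.8%), those of rps-1, rps-4, rps-8, rps-11 and rps-18. TATAAA, the core of the TATA box, was present at 3 (13.6%, against 10.9%), those of rps-0, rps-18 and rps-21. CCGCCC was present at 2 (9.09%, against 9.43%), those of rps-19 and rps-28, and CTGCGTC at 1 (4.55%, against 10.2%), that of rps-11. AGGTCA, a half-site that many nuclear receptors recognise, was found at 0 of 22 (up to 13.6% if the summits were independent draws), against 5.49%. Over the whole promoter windows of all protein-coding genes these words are common: GAGAGA is in 50.9%, TATAAA in 80.0%, CCGCCC in 19.2%, CTGCGTC in 11.5% and AGGTCA in 26.7%. These windows are longer than those at the summits. Of the 31 small subunit promoter windows, 18 held GAGAGA, 25 TATAAA, 8 CCGCCC, 3 CTGCGTC and 7 AGGTCA. A window counted once for each word, however many copies it held, and GAGAGA can overlap itself. The GC content of the windows was 44.9% ± 3.88 (SD, n = 22 summits), against 43.4% ± 6.92 (SD, n = 1622).

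Longer words recurred among the bound promoters. A search of all 11-letter words, made on these windows after their summits were known, found 6 words present at 5 or more small subunit summits, which overlap one another in 2 families, and the rarest of each family is described here. Their counts at these genes are thus a product of the choice. AGTATTCAACG (reverse complement CGTTGAATACT) was at the summits of rps-0, rps-3, rps-20, rps-22 and rps-30. ACGGTAACACT (reverse complement AGTGTTACCGT) was at those of rps-10, rps-13, rps-17, rps-18 and rps-23. No gene had both, so that 10 of the 22 windows held 1 of the 2 words. Neither word was in the promoter window of any of the 9 genes without a thresholded summit (up to 33.3% if the genes were independent draws). The words were chosen at bound genes and are in 0.115% and 0.185% of all promoter windows. That count of 0 therefore does not set the 9 genes apart.

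The copies of each word differed in their distance from the 5' end. AGTATTCAACG was read on the strand of the gene in all 5 cases, 315 bp upstream at rps-3, 275 bp at rps-0, 225 bp at rps-30, 200 bp at rps-20 and 95 bp at rps-22. It was 15 to 55 bp from the summit, where the search reached no farther than 75 bp. ACGGTAACACT was read on the gene's strand at rps-10 and rps-23 and on the other strand at rps-13, rps-17 and rps-18. It lay 367 bp upstream at rps-10, 253 bp at rps-23, 170 bp at rps-13, 221 bp at rps-17 and 652 bp at rps-18, and 0 to 41 bp from the summit. At rps-17, the bound gene with the lowest signal, the word stood on the summit itself.

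Copies away from the small subunit genes entered the choice only through the number of promoter windows that hold each word, and their place relative to summits did not enter it. AGTATTCAACG occurs in 0.115% of all promoter windows (23) and at 5 of the 1622 other promoter summits (0.308%). Of the 23 windows, 18 are of genes outside the small subunit set, and these include neighbours that share a copy with a small subunit gene. Of its 63 copies in the nuclear genome, 58 were elsewhere, and 7 of those (12.1%) lay within 100 bp of a thresholded summit, where 0.776% of the nuclear genome lies. Of the 12 copies elsewhere that were in a promoter window, 5 (41.7%) were that near a summit. ACGGTAACACT occurs in 0.185% of promoter windows (37, of which 32 are of other genes, such neighbours included) and at 10 of the other promoter summits (0.617%). Of its 49 copies, 44 were elsewhere and 10 of those (22.7%) were near a summit, as were 10 of the 19 (52.6%) that lay in a promoter window. The 0.776% is a share of the whole nuclear genome, and no such share of promoter sequence is given here. The shares of 41.7% and 52.6% thus have no like background, and whether they exceed that of promoters in general was not tested. A match of letters is a description and does not show that a factor binds the word.

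Promoters of large subunit genes held both words. AGTATTCAACG was in the windows of rpl-7A, which had a signal of 878.85, rpl-13 with 139.91, rpl-32 with 104.40 and rpl-39, which shares the copy and the 109.95 of rps-30. ACGGTAACACT was in those of rpl-11.2 with 558.06, rpl-21 with 177.02, rpl-1 with 135.88, rpl-24.1, which shares the copy and the 311.51 of rps-10, and rpl-34, which had no thresholded summit. Outside the ribosome the words also occurred at bound genes, among them rpa-2 with 476.36, ints-4 with 728.39, ntl-2 with 266.90 and rsp-6 with 142.11, so they are not limited to ribosomal protein genes.

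Other genes of the ribosome and of initiation were set beside the small subunit genes, where 10.1% of all protein-coding genes were bound. Of the 47 cytosolic large subunit genes, 33 were bound (70.2%), with a median signal of 162.96, a range of 75.74 to 2066.39 and a median summit 293 bp upstream. The shares of the subunits thus stood side by side at 71.0% and 70.2%. Of the 70 mitochondrial ribosomal protein genes, 13 were bound (18.6%), with a median signal of 122.91 and a median summit 150 bp upstream.

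Of 9 genes that serve small subunit assembly or sit beside its proteins, 5 were bound (55.6%, against 10.1% of all protein-coding genes). These were fib-1 with 329.02, rbd-1 with 253.99, nol-56 with 189.01, nol-58 with 161.09 and ubl-1 with 133.89. fib-1, nol-56 and nol-58 encode core proteins of the particles that methylate ribosomal RNA, and ubl-1 encodes a ubiquitin-like protein fused to a small subunit protein. The genes rack-1, riok-1, riok-2 and riok-3 were not. Of 13 genes for initiation factors on the small subunit, 6 were bound: eif-3.C with 357.37, eif-3.B with 318.95, eif-3.G with 195.03, eif-3.E with 157.31, eif-1.A with 80.32 and eif-3.D with 77.05. Of these, the bound genes of the eIF3 complex, which holds the small subunit ready for the messenger RNA, ran from 77.05 to 357.37. The peaks of eif-1.A and eif-3.D ranked 1971 and 2932 in replicate 1, but only 17534 and 14367 in replicate 2. The other 7 initiation genes had no thresholded summit in the window. They were eif-3.F, eif-3.H, eif-3.I and eif-3.K of the same complex, and eif-1, eif-2alpha and eif-2gamma.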

How the data were processed

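Peak lists of the ce11 build were used. Each peak's signal is the value the authors deposited, on a scale of its own in each list, and served only to describe and rank peaks within a list. The aligner, the peak caller and the threshold behind the thresholded list are not stated in any label or file used here, and read depth is unknown. The ce10 lists were not used.

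Positions were counted from 1 and matched to the Ensembl release 115 annotation by summit, and 19 mitochondrial peaks of the thresholded list were left out. Where a window held several summits, the highest was described. The replicate summit of highest signal within 100 bp of the pooled one was its partner. Scripts in Python 3.11.15 with NumPy 2.4.6, SciPy 1.17.1 and Matplotlib 3.10.9 were tested on simulated data with planted summits. Values in full were given for the 10 bound small subunit genes with the highest pooled signal and for all without a thresholded summit. The genes, lists and words were chosen with earlier results of these data known, and the recurring 11-letter words and the other genes named at them after their values were seen. Of the initiation factors listed, 3 symbols (iftb-1, eif-5 and eif-3.A) matched no gene name in the annotation and were left out. Head and body groups and the families shared with bacteria follow the known structure of the ribosome. Alternatives were other promoter windows, other 5' ends, the upper 50% of thresholded peaks by signal, the nearest 5' end alone, each replicate alone, and other summit distances and word windows.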

Additional observations from a re-analysis of the deposited data

How the results depend on the processing

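Of the 68 alternative values, 55 were within 1.5 times the value given above for a count, or within 1 SD of the values of the 2 replicates for a median signal or position. For the median signal those 2 values are each on the scale of their own list. Their SD is therefore no measure of spread on the pooled scale, and whether a median signal is among the 55 says little. The count of bound small subunit genes was 21 with a window of 500 bp upstream to 100 bp downstream, which lost rps-18 (7.69% of all genes), and 23 with 2000 bp upstream, which gained rps-16 (13.3%). It was 22 with the 5' end of any transcript (10.9%) and 16 with the upper 50% of peaks by signal (5.85%). It fell to 11 (10.8% of all genes) where each summit counted only for the nearest 5' end within 2000 bp, since the other 11 summits were nearer to another gene. With 1 replicate alone the count was 20 to 23 and the median signal 67.66 to 138.35, each on its own scale. The median signal was 305.72 with the upper 50% of peaks, by construction. The median position was -265 under the nearest 5' end.

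Word counts this small moved by 1 to 3. GAGAGA was at 3 summits with the upper 50% of peaks and at 3 to 4 with 1 replicate alone. CCGCCC was at 1 under the nearest 5' end and at 2 to 4 with 1 replicate alone. TATAAA was at 1 with the upper 50% of peaks, at 1 under the nearest 5' end, at 6 within 150 bp and at 1 within 50 bp of the summit. Both replicates had a summit at 17 genes within 50 bp (6.79% of all genes) and at 22 within 200 bp (9.38%). No paired analysis was possible because the samples form 1 group. The lists give no reads and no control, so whether the weak peaks at genes such as rps-2 and rps-5 lie above background was not tested.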
